A study of Saccharomyces cerevisiae with 12 samples.

Results

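Strong poly(A) sites within 40 nt of the stop codon were examined in budding yeast strains that lack UBP8 or RPB4. A strong close site was a single nucleotide 1 to 40 nt downstream of the stop codon whose value reached 20% or more of the gene's highest position in either strain, in ORFs with a 3′ UTR window value of 10 RPM or more in both. By this rule 1069 sites were found on 563 of the 3746 ORFs tested, which is 15.0% of them, and the profiles cover 5798 ORFs in all. Over the whole window of 400 nt the same ORFs held 21704 strong sites, of which 20635 lay at 41 to 400 nt. The sites were thus chosen by their values in both profiles, and those values are given as a description, without a test.

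Poly(A) sites were measured by 3′ READS, which captures the 3′ ends of polyadenylated RNA and places each site at the last base before the added As. The ubp8Δ strain had the genotype RPB3::RPB3-3xFLAG NAT with UBP8::HIS3, and the rpb4Δ strain had the same tagged RPB3 with RPB4::HIS3, so both carried the FLAG tag on Rpb3 and both its NAT and the HIS3 marker. Both were grown to mid-log phase in YPD at 30 °C. Each deposited profile pools 2 biological replicates of a strain, so there is 1 profile per strain, no value has a replicate error and no difference between strains could be tested. No wild-type profile was used here.

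The profiles held 16276288 reads for ubp8Δ and 2529377 for rpb4Δ, as recovered from the RPM value of 1 read. Reads within the deleted ORFs followed the labels: UBP8 held 0 RPM in ubp8Δ and 4.75 RPM in rpb4Δ, and RPB4 held 14.98 RPM in ubp8Δ and 0 RPM in rpb4Δ. Intervals below are at 95%, cover counting error only (for sites and reads) or the spread over genes of 1 profile (for medians), and treat reads as independent although the libraries were amplified by PCR. Intervals for shares of sites also treat sites as independent. Many genes hold several sites, and neighbouring sites share upstream sequence, so these intervals are likely too narrow.

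In yeast, the cleavage and polyadenylation machinery cuts the nascent RNA downstream of the stop codon and poly(A) polymerase adds the tail. The sequences that guide it are a TA-rich efficiency element, best known as TATATA in the DNA, an A-rich positioning element closer to the site, and T-rich stretches on both sides of the cut, which usually follows a pyrimidine next to As. A site close to the stop codon gives an mRNA with a very short 3′ UTR, and part of the sequence upstream of such a site is coding sequence. Ubp8 removes ubiquitin from histone H2B as part of the coactivator SAGA, and Rpb4 belongs to the stalk of RNA polymerase II (Pol II).

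The sites nearest to the stop codon show how little transcribed sequence then lies between translation termination and the tail. The 5 strong sites nearest to the stop codon with at least 20 reads and 20% in both profiles, and the site of STE14, are printed below from the first base of the stop codon. The stop codon and the last base before the tail are in capitals, sequences are from the RefSeq R64 assembly (the build of the files, SacCer3), and each is written 5′ to 3′ on the strand of the gene.
MNR2, site 3 nt after the stop codon, chrXI:320671-320700, plus strand: TAAttTaagtgttttttcgcgcattagcgc
EFM2, site 4 nt after the stop codon, chrII:746109-746138, plus strand: TAGtggGaaagaaacgaacgcgcttaggcg
LYS5, site 4 nt after the stop codon, chrVII:215251-215280, minus strand: TAAtgcCaatttttttttttcgcttgctca
GBP2, site 5 nt after the stop codon, chrIII:102048-102077, minus strand: TAAttccTaagcaccaaccgaaccatgacc
ATE1, site 6 nt after the stop codon, chrVII:461363-461392, plus strand: TGAgccttCaacacactattctaataacaa
STE14, site 20 nt after the stop codon, chrIV:1292345-1292374, minus strand: TAAtagtaatgattgtgttagtTatggact
In all 6 the base after the site is an A. Encoded As cannot be told from the tail once it is trimmed, so the cut may lie anywhere within that run of As.

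The 8 sites with the most reads lay further from the stop codon, at 20 to 40 nt. Of these, 5 are shown with the 30 bases that end at the site, so that the sequence upstream of the cut can be read, with the site itself in capitals.
RPS1B, site at 38 nt, chrXIII:147258-147287, plus strand: aatataaattataagatttgacatgtacaC
CTF8, site at 31 nt, chrVIII:486199-486228, minus strand: tacttagttattgttcggagttgtttgttT
CDC36, site at 38 nt, chrIV:164874-164903, plus strand: gagaaacgaaagaagtaaataaatgtcatT
NGG1, site at 33 nt, chrIV:816564-816593, plus strand: atacgaactctaaggaaaaatacgtagcaT
CDC48, site at 39 nt, chrIV:236118-236147, minus strand: aggtatatttttattttaaatcgtaaattC
These 5 end in a pyrimidine, AATAAA is in the CDC36 stretch, and none of them holds TATATA. Of the other 3, the sites of STE14 at 20 nt and YBR056W at 40 nt end in a T with TATATA upstream and are shown with that element further on, and the CTF8 site at 28 nt ends in a G.

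Strong sites became more frequent with distance from the stop codon. The 10-nt intervals from 1 to 40 nt held 93, 186, 284 and 506 strong sites, and the median position was 30 nt (29 to 31). Of the positions that are not an A and whose preceding 17 bases occur once in the genome, 0.380% (0.311 to 0.466) were strong in the first 10 nt and 2.10% (1.92 to 2.29) in the interval from 31 to 40 nt. The share peaked at 5.63% (5.35 to 5.92) at 81 to 90 nt and was 0.381% at 391 to 400 nt, so the first 10 nt after the stop codon were about as sparsely used as the last 10 nt of the window. Position 1 held 5 strong sites, none of them strong in both profiles, and position 38 held 61. At position 1, 2368 of the 3746 ORFs tested have a base other than A. In the rest, a cut within the run of As that starts there would be placed in the stop codon, outside the window. In 639 ORFs (17.1%) the stop codon before that A is TAA.

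**Figure D1:**
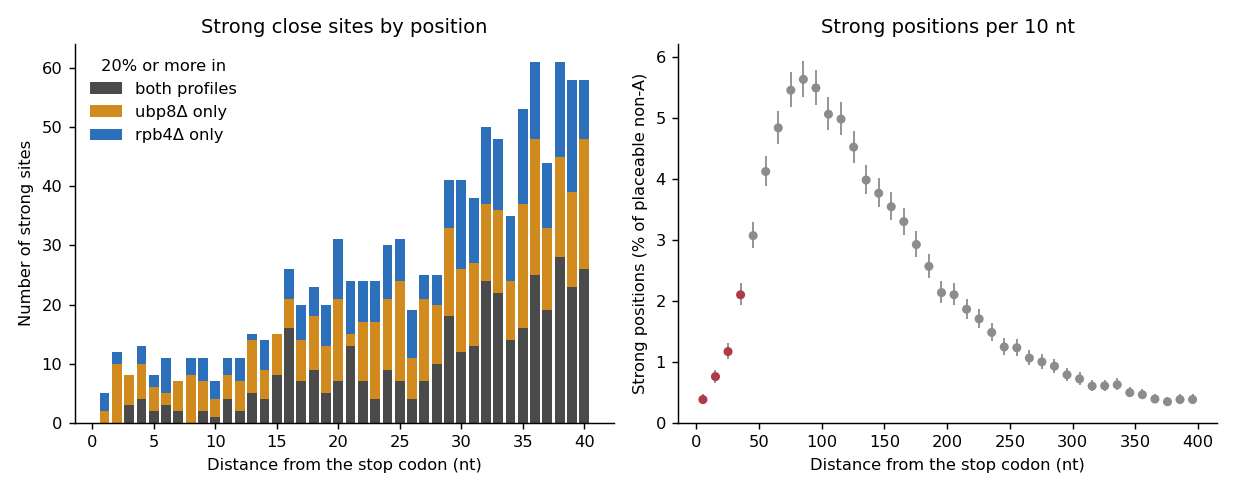
Left, number of strong sites at each nucleotide from 1 to 40 nt after the stop codon, split by the profile in which the value was 20% or more. Right, percent of placeable positions other than A that were strong, per 10 nt over the 400-nt window of 3746 ORFs, with 95% Wilson intervals; the 4 red points are the first 40 nt, which rise from 0.380% to 2.10% below the peak of 5.63% at 81 to 90 nt.

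The class of a site follows from the values that chose it. Of the 1069 close sites, 385 (36.0%, 33.2 to 38.9) were strong in both profiles, beside 47.9% of all strong sites in the window. A further 401 (37.5%) were strong in ubp8Δ only, beside 26.9%, and 283 (26.5%) in rpb4Δ only, beside 25.2%. The share strong in both was 18.3% (11.7 to 27.3) in the first 10 nt and 41.5% (37.3 to 45.8) from 31 nt on. Depth moved with these shares. The median close site had 55 reads in ubp8Δ and 9 in rpb4Δ, while the median strong site at 41 to 400 nt had 82 and 15, and 376 close sites had fewer than 5 reads in rpb4Δ against 119 in ubp8Δ. Among genes with 100 or more reads in both windows, 255 of 561 close sites were strong in both (45.5%), and 150 (26.7%) and 156 (27.8%) in ubp8Δ or rpb4Δ only, beside 55.6%, 21.3% and 23.2% of the 13210 strong sites at 41 to 400 nt on such genes. This minimum acted through rpb4Δ alone, since a window of 10 RPM already exceeds 100 reads in ubp8Δ. On the genes with a close site that were left, the lowest window was 39.5 RPM in rpb4Δ and 10.1 RPM in ubp8Δ. The excess of ubp8Δ-only over rpb4Δ-only sites was thus gone on genes with a higher window in rpb4Δ. The share strong in both stayed below that of the sites further downstream.

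Values of the same site often differed widely between the profiles. The median value was 30.3% of the gene's highest position in ubp8Δ and 25.0% in rpb4Δ, and 304 sites (28.4%) had no read in 1 of the profiles, while this held for 16.9% of the strong sites at 41 to 400 nt. The profile without a read was ubp8Δ for 75 close sites and rpb4Δ for 229. The close site was the gene's highest position at 139 sites in ubp8Δ and 129 in rpb4Δ, and at 64 sites in both. At the threshold, on genes with 100 or more reads in both windows, the sites just inside were BRR6 at 12 nt (0% in ubp8Δ and 20% in rpb4Δ), YGR012W at 27 nt (18.02% in ubp8Δ and 20.01% in rpb4Δ) and YMR253C at 36 nt (20.03% and 0%). Those just outside were RBK1 at 5 nt (10.5% and 19.99%), DER1 at 23 nt (7.05% and 19.98%) and CNE1 at 19 nt (19.7% and 6.14%), so the threshold parted sites of nearly the same strength.

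**Figure D2:**
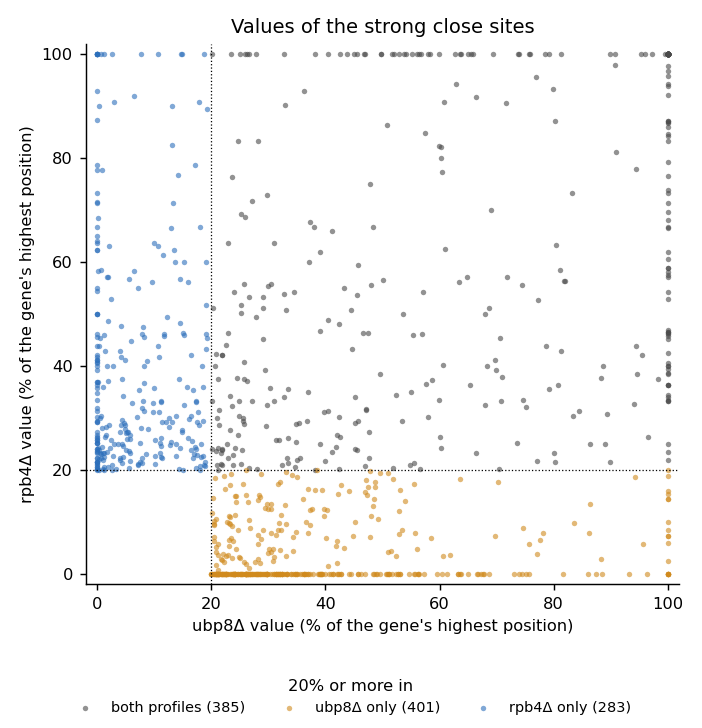
Value of each of the 1069 strong close sites in ubp8Δ (x axis) and rpb4Δ (y axis), as percent of the gene's highest position; dotted lines mark the 20% threshold and colours the 3 classes. The 229 sites with no read in rpb4Δ lie along the lower edge and the 75 with none in ubp8Δ along the left edge, and the empty corner at lower left is set by the rule.

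The 5 sites nearest to the stop codon differed in strength. The site of MNR2, a vacuolar magnesium transporter gene, was the highest position in both profiles, with 914 of 2700 window reads in ubp8Δ (33.9%) and 101 of 265 in rpb4Δ (38.1%). That of LYS5, which encodes the enzyme that activates the lysine pathway reductase Lys2, held 228 of 279 reads in ubp8Δ (81.7%) and 36 of 47 in rpb4Δ (76.6%). For both genes the site led in each profile, and the site of LYS5 was the only strong site the gene had. EFM2 encodes a methyltransferase that acts on a translation elongation factor. Its site had 176 of 874 reads in ubp8Δ (20.1%) and 63 of 184 in rpb4Δ (34.2%), and was also the highest position in both. GBP2 encodes an SR-like protein that binds mRNA and takes part in its export, and its site was lower in ubp8Δ, at 32.9% of the highest position (319 reads), than in rpb4Δ, at 90.3% (130 reads). ATE1, the arginyl-tRNA-protein transferase gene, had a similar split, with 22.96% (23 reads) in ubp8Δ and 63.6% (28 reads) in rpb4Δ, both on few reads.

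The sites with the most reads were read deeply enough in both profiles for a narrow counting interval. RPS1B encodes a protein of the small ribosomal subunit, and its site at 38 nt had 6662 reads (409 RPM) in ubp8Δ and 2424 reads (958 RPM) in rpb4Δ, which was 10.3% and 14.9% of its window. It was a lesser site of that gene: the positions at 62 and 65 nt were at 98.4% and 100% in ubp8Δ and at 100% and 89.9% in rpb4Δ. CDC48 encodes the AAA ATPase that extracts ubiquitylated proteins, and its site at 39 nt had 2288 and 337 reads, 5.22% and 5.52% of its window, with the highest position at 71 nt in ubp8Δ and at 50 nt in rpb4Δ. These genes thus entered through a side site on a very strong window.

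For the other genes with the most reads the close site was the main one. CTF8, a subunit of the clamp loader of sister chromatid cohesion, had its highest position at 31 nt in both profiles, with 5379 reads in ubp8Δ (39.8% of its window) and 512 in rpb4Δ (42.2%), a second site at 28 nt with 32.3% and 24.7%, and another at 36 nt with 11.6% and 19.04%. CDC36, a subunit of the Ccr4-Not complex that shortens poly(A) tails, had 2449 reads (51.9%) in ubp8Δ and 686 (58.9%) in rpb4Δ at 38 nt. NGG1, which encodes the SAGA subunit also called Ada3, had 2578 reads (66.4%) in ubp8Δ and 319 (59.4%) in rpb4Δ at 33 nt, its only strong site. STE14, the methyltransferase gene for prenylated proteins such as the a-factor pheromone, had 2321 reads (44.8%) in ubp8Δ and 515 (44.8%) in rpb4Δ at 20 nt. YBR056W, annotated as a putative glycoside hydrolase gene, had 2905 reads (56.0%) in ubp8Δ and 302 (46.0%) in rpb4Δ at 40 nt, the last position of the interval. In all 5 genes the same nucleotide was the highest in both strains.

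Most genes with a close site used it as 1 of several sites. There was 1 close site on 303 genes, 2 on 121 and 3 or more on 139, and the median gene also had 6 strong sites at 41 to 400 nt, against 5 on ORFs without a close site. Only 17 genes had no strong site beyond 40 nt. The highest position of the window lay within 40 nt in both profiles on 84 genes, and on 64 of these it was the same nucleotide. It lay within 40 nt only in ubp8Δ on 55 genes and only in rpb4Δ on 44. The largest number of close sites, 9, was found on CNL1, which encodes a subunit of the endosomal BLOC-1 complex, and on YOR302W. At CNL1, 7 of the 9 sites were strong in both profiles, from 19 to 33 nt and led by 23 nt in ubp8Δ (262 reads) and 31 nt in rpb4Δ (43 reads). YOR302W is the short upstream ORF in the leader of CPA1, so its sites at 4 to 40 nt precede the CPA1 coding sequence. They summed to 81.1% of 586 window reads in ubp8Δ and 57.1% of 28 in rpb4Δ, and only 1 of the 9 was strong in both.

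The share of a gene's window signal at 1 to 40 nt gives all close signal together, strong or not. Its median over the 563 genes was 17.5% (14.99 to 19.8) in ubp8Δ and 15.02% (13.4 to 16.6) in rpb4Δ, with the middle 50% of genes between 8.03% and 34.8% in ubp8Δ and between 5.41% and 33.6% in rpb4Δ. Over the 3183 other ORFs the median was 0% in both profiles, which the choice of genes largely sets. On 56 genes the share exceeded 50% in both profiles.

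Among genes with 100 or more reads in both windows, 8 had the largest share by the lower of the strains. HAL5, a kinase gene for potassium uptake and salt tolerance, had 839 of 879 reads within 40 nt in ubp8Δ (95.5%, 93.9 to 96.6) and all 121 in rpb4Δ (100%, 96.9 to 100). PEX34, a peroxisome division gene, had 93.4% (91.4 to 94.9) in ubp8Δ and 92.2% (88.0 to 95.01) in rpb4Δ. The next gene, PRD1, is convergent and its 3′ end lies 19 nt downstream, so the sites at 20 and 28 nt lie inside it. PML39, a nuclear pore gene needed to retain unspliced RNA in the nucleus, had 91.9% in ubp8Δ and 94.6% in rpb4Δ. CTF8 had 92.2% and 90.3%, and CDC36 82.5% and 80.3%. ALK1, a mitotic kinase gene, had 96.5% (94.2 to 97.9) in ubp8Δ and 89.7% (83.2 to 93.9) in rpb4Δ. YHL017W, of unknown function, had 80.01% and 89.1%. PMT3, a protein O-mannosyltransferase gene, had 96.5% (94.8 to 97.6) in ubp8Δ and 79.1% (70.6 to 85.6) in rpb4Δ. On these genes 79.1% or more of the window signal lay within 40 nt of the stop codon in each strain, with the lowest value for PMT3 in rpb4Δ, and 7 of the 8 had no strong site further downstream, CDC36 being the exception with 1.

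**Figure D3:**
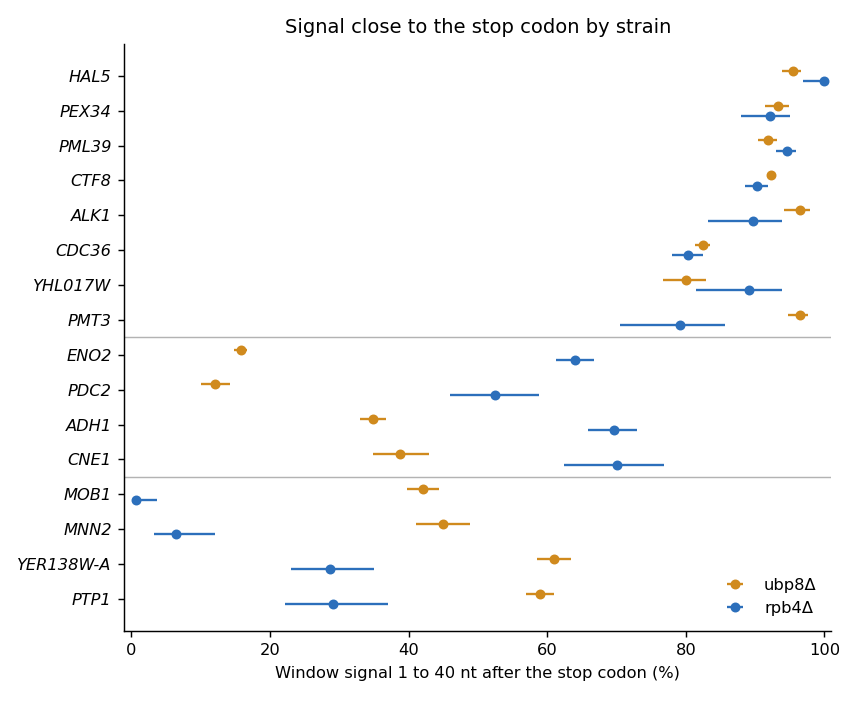
Percent of the window signal at 1 to 40 nt in ubp8Δ and rpb4Δ for the 8 genes with the largest share (top), the 4 with the largest higher share in rpb4Δ (middle) and the 4 with the largest lower share in rpb4Δ (bottom), all chosen by these values. Points are the pooled profiles and bars 95% Wilson counting intervals; ENO2 stands at 15.8% in ubp8Δ and 64.0% in rpb4Δ, and MOB1 at 42.1% and 0.689%.

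Between strains, the share within 40 nt differed little at the median, with wide gaps on single genes in both directions. The median difference, rpb4Δ minus ubp8Δ, was -3.27 points (-4.55 to -1.16) over the 563 genes, with a higher share in ubp8Δ on 323 and in rpb4Δ on 240. On the 3183 other ORFs it was higher in ubp8Δ on 1001, in rpb4Δ on 583 and equal on 1599, so more ORFs had the higher share in ubp8Δ there too. Over the 298 genes with 100 or more reads in both windows it was -0.96 points (-3.08 to 0.52), with 158 higher in ubp8Δ and 140 in rpb4Δ. The interval also held 0 with a threshold of 50% (-4.94 to 0.46), with 20% in both profiles (-3.08 to 0.65), with a window minimum of 50 RPM (-3.08 to 0.72) and without sites followed by an A (-4.94 to 3.86), so no direction is drawn from the median. On 302 of the 563 genes the strains differed by less than 10 points. The members were chosen with these values, the profiles differ in depth, and there is no spread between replicates to set the differences against. The libraries come from whole cultures, so a change in a fraction of the cells and a change in every cell cannot be told apart.

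Some genes had far more close signal in rpb4Δ. ENO2, the enolase gene of fermenting cells, had 963 of 6116 window reads within 40 nt in ubp8Δ (15.8%, 14.9 to 16.7) and 761 of 1189 in rpb4Δ (64.0%, 61.2 to 66.7). In ubp8Δ the top position was 118 nt (1351 reads, against 443 at 32 nt), and in rpb4Δ it was 32 nt (331 reads, against 129 at 118 nt). ADH1 encodes the main alcohol dehydrogenase of fermentation, with 34.9% (33.0 to 36.8) in ubp8Δ and 69.6% (65.9 to 73.0) in rpb4Δ, and with the highest position at 89 nt in ubp8Δ and at 21 nt in rpb4Δ. PDC2, the transcription factor gene for pyruvate decarboxylase, had 12.03% (10.1 to 14.3) and 52.4% (46.0 to 58.8), with the highest position at 71 nt and at 35 nt. CNE1, the calnexin gene, had 38.8% (34.9 to 42.9) and 70.1% (62.5 to 76.8), led by 132 nt in ubp8Δ and 38 nt in rpb4Δ. On these 4 genes a site that was present in both profiles changed rank. The whole window was also higher in rpb4Δ on each, for example 470.1 against 375.7 RPM on ENO2 and 253 against 145 RPM on ADH1.

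Other genes had far less. MOB1, a gene of the mitotic exit network, had 757 of 1800 reads within 40 nt in ubp8Δ (42.1%, 39.8 to 44.4) and 1 of 147 in rpb4Δ (0.689%, 0.120 to 3.75). The position at 35 nt led in ubp8Δ, with 348 reads against 1 in rpb4Δ, and that at 72 nt in rpb4Δ, with 41 reads against 95 in ubp8Δ. MNN2, a mannosyltransferase gene of the Golgi, had 45.0% (41.1 to 48.9) and 6.41% (3.28 to 12.1), with sites at 5, 20 and 29 nt that held 25, 50 and 67 reads in ubp8Δ and none in rpb4Δ. PTP1, a tyrosine phosphatase gene, had 58.9% (56.9 to 60.9) and 29.1% (22.2 to 37.1), led by 36 nt in ubp8Δ and 61 nt in rpb4Δ. YER138W-A, an ORF of unknown function, had 61.0% (58.5 to 63.5) and 28.7% (23.1 to 35.1), with 15 nt the highest position in both. Gaps of over 29 points in both directions thus occurred on single genes beside the small median difference, and these 8 genes were picked for their gaps. In rpb4Δ the whole window was lower on MOB1 (58.1 against 110.6 RPM), PTP1 (55.75 against 139.5 RPM) and YER138W-A (85.4 against 90.1 RPM). It was higher on MNN2 (49.4 against 38.3 RPM).

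**Figure D4:**
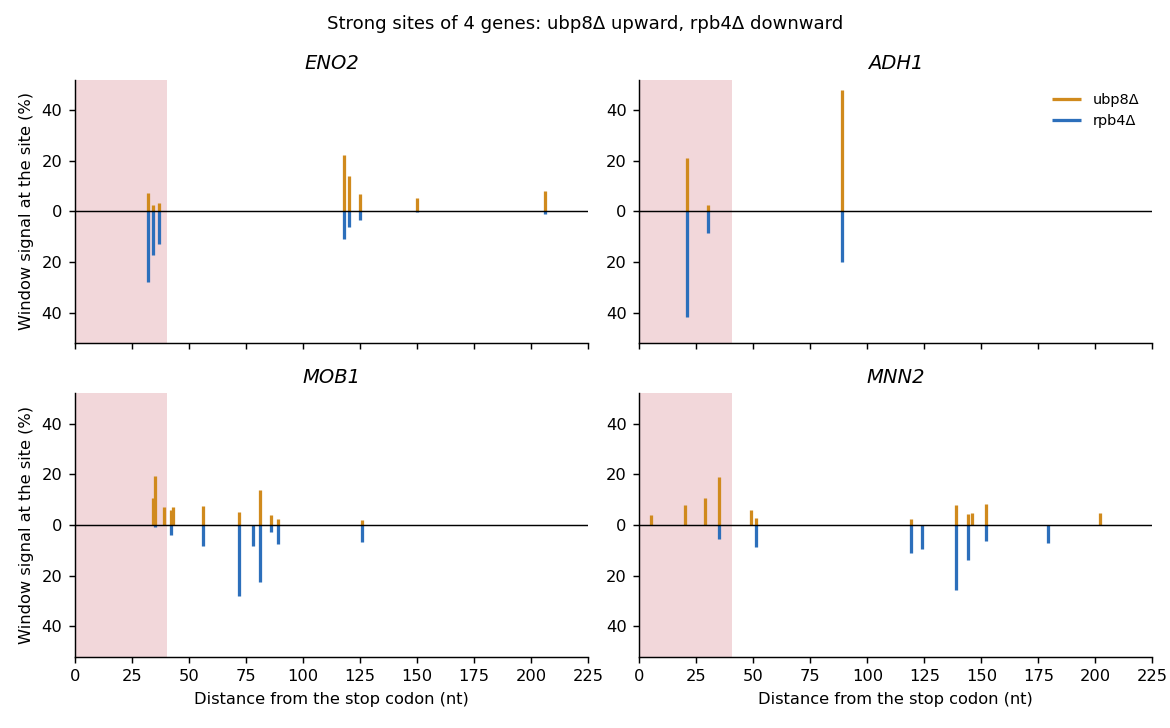
Percent of the window signal at each strong site of ENO2, ADH1, MOB1 and MNN2 against the distance from the stop codon, ubp8Δ upward and rpb4Δ downward; the shaded band is 1 to 40 nt. The tallest line stands outside the band in ubp8Δ and inside it in rpb4Δ for ENO2 and ADH1, and the reverse holds for MOB1 and MNN2.

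The bases around the sites were not used by the rule, apart from the trimming of As that keeps an A from being a site. Trimming also places every cut within a run of encoded As at the base before it. A base followed by an A can thus collect the reads of several cuts, so the next base is not independent of the processing. The base was T at 48.2% of the 1069 close sites, C at 30.8% and G at 21.1%, against 57.6%, 22.0% and 20.4% of the other positions within 40 nt on the same genes, As left out. The next base was an A at 84.1% of close sites (81.8 to 86.2), against 82.7% of strong sites at 41 to 400 nt and 29.8% of the other close positions on the same genes. Only 23 close sites (2.15%) were followed by 5 or more As, the same share as further downstream (2.18%). Close sites strong in both profiles had 41.6% A and 32.3% T at 30 to 11 nt upstream, 23.9% A and 43.3% T at 10 to 1 nt upstream, and 41.8% T at 11 to 20 nt downstream. Sites strong in both at 41 to 400 nt had 38.5% A and 33.1% T, 23.6% A and 42.2% T, and 38.97% T in the same stretches. Other positions within 40 nt, here over all ORFs tested and not the same genes alone, had 35.2% A and 30.5% T, 34.0% A and 34.4% T, and 37.2% T. The 684 close sites strong in 1 profile had 39.3% A and 32.9% T, 28.0% A and 41.2% T, and 40.47% T in these stretches, and an A as the next base at 81.4%, against 88.8% of close and 87.8% of downstream sites strong in both. At 10 to 1 nt upstream, close sites strong in both were thus near the downstream sites. Those strong in 1 profile lay there between the downstream sites and the other positions. For A at 30 to 11 nt upstream and T at 11 to 20 nt downstream, close sites strong in both lay above the downstream sites. The downstream sites in turn lay above the other positions. Further upstream, at 60 to 31 nt, T made up 31.2% before close sites, 37.3% before downstream sites and 26.4% before other close positions of all ORFs tested. Much of that stretch is coding sequence before a close site.

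**Figure D5:**
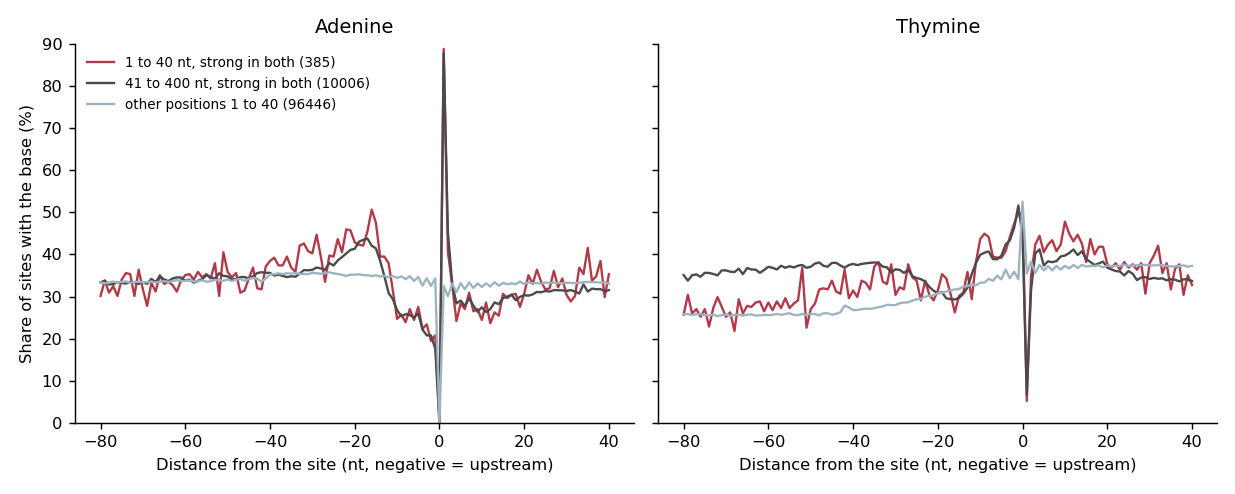
Percent of sites with adenine (left) and thymine (right) at each distance from the site, for the 385 close sites strong in both profiles, the 10006 sites at 41 to 400 nt strong in both, and 96446 other positions within 40 nt on all ORFs tested, As left out. Red (close) and black (downstream) have the same overall shape near the site, with adenine at 88.8% and 87.8% at the base after it, but differ at single distances, as at 16 nt upstream with 50.6% and 42.1% adenine, and further upstream thymine before close sites is lower.

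The efficiency element TATATA was searched for on the sense strand, wholly within 10 to 75 nt upstream of a site, with overlapping matches allowed. It was found before 138 of the 1069 close sites (12.9%, 11.03 to 15.1), against 33.7% (33.1 to 34.4) of strong sites at 41 to 400 nt and 34.2% (32.8 to 35.7) of those at 41 to 80 nt. Among other positions within 40 nt it was found before 9.77% on the same genes and 4.07% on the other ORFs tested. The share was 17.4% (13.9 to 21.5) for close sites strong in both profiles, 10.5% for ubp8Δ only and 10.2% for rpb4Δ only, and 20.3% (12.3 to 31.7) for the 64 that were the highest position in both. By distance it was 9.68%, 8.06%, 12.7% and 15.4% for the 4 successive intervals of 10 nt. Of the 138, 76 had the element inside the ORF, stop codon included, and 62 had it downstream of the stop codon. The nearest match began at a median of 33 nt (31 to 35) before the site. The share before close sites was thus well below that before sites further downstream and above that of the other close positions on the same genes. Searched 25 to 60 nt upstream, it was 8.51% (6.985 to 10.3) at close sites and 23.45% at strong sites at 41 to 400 nt. At the other close positions it was then 4.54% on the same genes and 1.17% on the other ORFs tested. These other positions hold less than 20% of the highest position and were not matched for distance, while close sites crowd towards 40 nt.

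These stretches show the element before close sites, with TATATA in capitals. In the first 3 it lies inside the ORF and in the last downstream of the stop codon.
STE14, element from 26 nt before its site, chrIV:1292355-1292384, minus strand: acctttTATATAatagtaatgattgtgtta
EFM2, element from 29 nt before its site, chrII:746080-746109, plus strand: agtattTATATAggcaaatcgttcgcaatt
ATE1, element from 25 nt before its site, chrVII:461340-461369, plus strand: tcatttTATATAgtgagcaaatgtgagcct
YBR056W, element from 23 nt before its site, chrII:349395-349424, plus strand: aacacaTATATActaactataggcgtttct
In EFM2 and ATE1 the element is part of the last codons before the stop codon, and in STE14 its last bases are the first bases of the stop codon. A match is a description of the sequence and not a mapped element.

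Exact matches to AATAAA or AAAAAA did not set the close sites apart. Other A-rich sequences were not counted, and the comparison was not matched for distance. The share was 2.15% for close sites at 1 to 10 nt and 11.9% at 31 to 40 nt. AATAAA or AAAAAA, on the sense strand and wholly within 5 to 35 nt upstream, stood before 104 close sites (9.73%, 8.09 to 11.7), against 11.2% of strong sites at 41 to 400 nt, 10.3% of other close positions on the same genes and 9.58% on the other ORFs. A run of TTTTTT within 20 nt on either side was found at 15.7% of close sites (13.7 to 18.02), 12.9% of downstream sites and 12.3% of other close positions on the same genes.

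The stop codons of these genes differed from the rest. TAA ended 323 of the 563 genes (57.4%, 53.3 to 61.4) and 47.0% (45.3 to 48.8) of the 3183 other ORFs, TAG 24.5% and 22.1%, and TGA 18.1% (15.2 to 21.5) and 30.9% (29.3 to 32.5). TAA was thus more common and TGA less common where a close site was strong.

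Reads inside the ORF were also not part of the rule. They made up a median of 18.2% (15.1 to 20.99) of ORF and window reads together in ubp8Δ and 5.55% (4.70 to 6.68) in rpb4Δ on genes with a close site, against 6.77% (6.11 to 7.37) and 1.94% (1.77 to 2.14) on the other ORFs. Genes with a close site also had lower windows, with a median of 45.0 RPM in ubp8Δ and 42.8 RPM in rpb4Δ against 70.7 and 75.5 RPM. With 100 or more reads in both windows the medians were 9.82% (8.17 to 13.0) and 3.98% (2.86 to 4.76) on 298 genes with a close site, against 4.34% (3.84 to 4.79) and 1.34% (1.199 to 1.47) on 2268 others. The median share of reads within the ORF was thus higher on genes with a close site in both strains. For the 56 genes with over 50% of the window signal within 40 nt in both profiles it was 10.2% (6.61 to 19.9) in ubp8Δ and 2.85% (1.33 to 7.16) in rpb4Δ. Each interval holds both the median of the other ORFs and that of all genes with a close site. The 56 genes were thus not set apart from either. Reads inside the ORF reached 72.5% in ubp8Δ and 59.0% in rpb4Δ on MNR2, and 72.7% and 60.8% on LYS5, while CTF8 had 0.00723% and 0% and CDC36 0% and 0.688%.

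Close sites seldom lay inside another gene. By the RefSeq annotation, 18 close sites (1.68%) lay in a gene on the opposite strand, against 13.9% of strong sites at 41 to 400 nt. On the same strand 2 lay in another gene, both on YBR220C. Distance largely sets this contrast, since a close site can lie only in a gene that comes within 40 nt or overlaps the ORF. Such a next gene was found for 2.13% (1.22 to 3.69) of genes with a close site and 1.45% (1.085 to 1.92) of other ORFs. The next gene downstream was convergent for 56.5% (52.4 to 60.5) of genes with a close site and 51.4% (49.6 to 53.1) of other ORFs, at a median distance of 195 nt (174 to 220) and 218 nt (209 to 227). Another gene on the same strand lay within the 400-nt window for 26.5% and 25.1%, and 775 of the 1069 close sites (72.5%) were on genes without one.

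By gene group, close sites were found on 14 of 136 cytoplasmic ribosomal protein genes (10.3%, 6.23 to 16.5), beside 15.0% of all ORFs tested. Of the 21 sites on these genes 4 were strong in both profiles, 6 in ubp8Δ only and 11 in rpb4Δ only. Over all 1069 close sites these classes made up 36.0%, 37.5% and 26.5%, and no lean is drawn from 21 sites. RPL17A at 38 nt had 13.5% (619 reads) in ubp8Δ and 62.3% (238 reads) in rpb4Δ, RPS31 at 34 nt had 6.55% (42 reads) and 92.0% (23 reads), and RPS4B at 27 nt had 55.5% (183 reads) and 17.3% (28 reads). Paralogs of ribosomal protein genes can share sequence, so reads from such stretches were not placed. Mitochondrial ribosomal protein genes had a close site in 2 of 56 cases (3.57%, 0.985 to 12.1), MRPL20 and RSM26, both strong in both profiles. Genes with proteasome names (RPN, RPT, PRE, PUP or SCL1), not all of which need encode subunits, had one in 6 of 32 (18.8%, 8.89 to 35.3). RPN14 at 16 nt was the highest position in both profiles, with 115 and 24 reads. RPN12 at 35 nt had 49.7% (73 reads) in ubp8Δ and 100% (45 reads) in rpb4Δ. Genes of tRNA synthetases had one in 4 of 26 (15.4%, 6.15 to 33.5), among them TYS1 for tyrosine, whose site at 27 nt had 1547 reads and was the highest in ubp8Δ and had 120 reads (42.4%) in rpb4Δ. None of 9 histone genes had one, which allows up to 29.9%, and of 333 ORFs without a standard name 48 did (14.4%, 11.1 to 18.6). Apart from the mitochondrial ribosomal protein genes, the interval of each group held the share of all ORFs.

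Of the genes altered in the strains, RPB3 had 1 close site, at 20 nt, with 5 reads (1.08%) in ubp8Δ and 3 reads (20.1%) in rpb4Δ. RPB3 carries the FLAG tag and the NAT marker in both strains, so the sequence after its stop codon may differ from the reference. RPB4, RPO21 (the largest Pol II subunit) and HIS3 had none, and UBP8 was not tested because its window held 9.20 RPM in ubp8Δ.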

How the data were processed

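The processed files hold 1 table per strain, in which the authors pooled 2 biological replicates of 3′ READS. Per the labels and the study's methods, Ts at the start of each read were counted and trimmed, the next 17 bases were placed on SacCer3 with bowtie, uniquely and without mismatches, and reads with As not encoded by the genome were kept. Versions are not given in the sources used here. At each position the deposited value is a percent, with the gene's top position set to 100. For the top position, the whole window and the ORF the authors gave RPM, reads scaled to library size. The rule's minimum of 10 was applied to the deposited RPM value of the window.

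Whole reads were recovered from the RPM of 1 read (0.0614 in ubp8Δ and 0.395 in rpb4Δ). All 4917 and 4611 low highest-position values came out whole within rounding, and reads at single positions are rounded and at least 1. A test on these reads between strains was not made, since each strain has 1 profile. Share intervals are Wilson intervals and median intervals are order-statistic intervals, at 95%. Sequence and neighbouring genes came from the RefSeq R64 assembly, in which all 3746 ORFs tested end in a stop codon at the deposited coordinate and 5787 of 5798 ORFs have the same ends. Positions whose 17 preceding bases occur more than once (1.90% at 1 to 40 nt) cannot be placed.

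The sites, gene lists and alternatives were chosen with earlier results of these data known. Named are the 8 sites with most reads by the lower RPM, the 8 genes with the largest share within 40 nt and the 4 with the largest difference each way (100 or more reads in both windows), the 5 sites nearest to the stop codon (20% and 20 reads in both), 3 sites on each side of the threshold, and UBP8, RPB4, RPB3, RPO21 and HIS3. CNL1, YOR302W and the members named within gene groups were chosen after their values were seen. Groups were taken by gene name or description alone. Python 3.11.15, numpy 2.4.6, pandas 2.3.3, scipy 1.17.1 and matplotlib 3.10.9 were used, and the functions passed 12 checks on simulated data. NET-seq samples of the series (8) were not used here.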

Additional observations from a re-analysis of the deposited data

Results flagged for a closer look

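The features other than ORFs were not part of the comparisons above. Of 57 such features with 10 RPM or more in both windows, 24 had a position within 40 nt after their end at 20% or more in either profile, and these made up 74 positions. They were mostly snoRNA genes, with 68 positions on 22 of 35, while 21 tRNA genes gave 3 positions on 1 gene and the only other noncoding RNA gene gave 3. The highest position in both profiles lay 1 nt after snR17a and snR40, 4 nt after NME1, the RNA of RNase MRP, 10 nt after snR68 and 33 nt after snR72. These features have no stop codon, so distances are from the annotated 3′ end.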

How the results depend on the processing

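No paired analysis was possible because each strain has 1 profile with its replicates pooled, and for the same reason leaving out a replicate was not possible. With 1 profile a strain, read counts in rpb4Δ limit most values. Of 108 alternative values, 52 stayed within the main value's interval, or within 1.5 times it for a count, and 56 moved, with none changing sign. The cause of a move was not tested where the setting does not itself add or remove sites.

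Of the main 1069 sites on 563 genes, a threshold of 50% left 447 sites on 304 genes and one of 10% gave 1767 sites. The median share within the interval was then 32.5% (ubp8Δ) and 30.2% (rpb4Δ) at 50%, and 10.7% and 9.10% at 10%. Asking for 20% in both profiles left 385 sites on 258 genes, with shares of 34.0% and 33.4%, a strain difference of -1.10 points, TATATA before 17.4%, and ORF reads of 12.7% and 4.28%. Positions 1 to 30 held 563 sites on 336 genes, 31.1% of them strong in both, with shares of 13.2% and 11.8% and TATATA before 10.7%. Positions 1 to 50 held 1809 sites, 40.9% strong in both, with shares of 23.3% and 21.3% and TATATA before 18.1%.

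Without a window minimum there were 1735 sites on 971 genes, 27.3% strong in both, with a difference of -5.01 points and ORF reads of 28.9% and 9.15%. A minimum of 50 RPM left 388 sites on 204 genes, 51.0% strong in both, with an rpb4Δ share of 16.95%, a difference of -0.54 points, TATATA before 18.3%, and ORF reads of 6.99% and 3.00%. Merging sites within 10 nt gave 650 sites, 41.2% strong in both. Leaving out sites followed by an encoded A left 170 sites on 128 genes, 25.3% strong in both, with shares of 27.2% and 24.5% and a difference of -1.08 points. TATATA searched 25 to 60 nt upstream was found before 8.51%.

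A minimum of 100 reads in both windows, chosen after seeing the data, left 561 sites on 298 genes, 45.5% strong in both, with a difference of -0.96 points, TATATA before 16.6%, and ORF reads of 9.82% and 3.98%. Asking for 5 reads at the site, or leaving out genes with another gene on the same strand in the window, moved none of these values. The setting of 5 reads, and every alternative for the strain difference and for the ORF reads, were also added after seeing the data.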

Other observations

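Among the 56 genes with more than 50% of the window signal within 40 nt in both profiles, the highest share in ubp8Δ was that of CLB5, an S-phase cyclin gene, with 96.9% of 447 window reads (94.8 to 98.1). In rpb4Δ it was 97.8% of 46 reads (88.7 to 99.6). The gene had 4 close sites and no strong site beyond 40 nt, led by 38 nt in ubp8Δ and by 40 nt in rpb4Δ. It fell below 100 reads in rpb4Δ, and was picked after its values were seen.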
